A study of Mus with 8 samples.

Results

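Ano1 and 5 further anoctamins (Ano4, Ano5, Ano6, Ano8 and Ano10) were followed across 8 whole subcutaneous tumours grown from the mouse pancreatic cancer line Pan02. These 6 genes were chosen from the 22911 named genes on the array as members of the anoctamin family, and Ano1 was chosen because its level had been lower in Mutant tumours. The Ano1 comparison between the groups is therefore a description without a test. The hosts of 4 tumours were Mutant mice on a B6 background with genotype Ext1 flox/flox; S100a4-Cre, and the hosts of the other 4 were wild-type B6 mice, called Control. Tumours of both groups were removed 36 to 40 days after the cells were transplanted; host ages were not given in the sources used here. The study set out to lower heparan sulfate in fibroblasts, and Ext1 encodes a subunit of the enzyme that builds heparan sulfate chains. The transplanted cells carry intact Ext1 in both groups, so only host cells can lose it in Mutant tumours, and the recombinase acts in whichever host cells use the S100a4 control regions, which are known to be active in fibroblasts and also in some immune cells. Control hosts carried neither the floxed alleles nor the recombinase, so the effects of these on their own cannot be told apart from the loss of Ext1.

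Anoctamins, also called the TMEM16 family, are membrane proteins that respond to calcium inside the cell. Some of them, such as ANO1, open a chloride channel, and others, such as ANO6, let phospholipids move between the leaflets of the membrane. ANO1 is known from smooth muscle, from the pacemaker cells of the gut and from secretory epithelia, and it is abundant in several carcinomas, pancreatic cancer among them.

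Each tumour's RNA was hybridised to 1 array, and 61.5% to 67.2% of 56605 probes on an array were well above background. A level below is a log2 signal minus that of the array's 75th percentile, and differences are Mutant minus Control on that log2 scale, with the standard error of a limma fit over 16068 genes. Across this whole fit 0 genes (0%) passed an adjusted p under 0.05, and 467 genes (2.91%) had an unadjusted p under 0.05. The labels call the tissue a subcutaneous tumour of pancreatic cancer cells. Of 12 carcinoma and simple epithelium markers 9 passed the filter on background, among them the keratins Krt7, Krt8, Krt18 and Krt19 and the cadherin Cdh1, while no array had Epcam or Grhl2 well above background. Levels of different probes are not set against each other, since each probe has its own brightness. RNA came from whole tumours, so fewer cells of a type and less RNA per cell cannot be told apart in any value below.

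The 6 genes were carried by 11 probes, and 7 of these, for Ano1, Ano6, Ano8 and Ano10, passed the filter, which asked for a signal well above background on 4 or more arrays. All 7 were above background on all 8 arrays, so none of them passed through the brightness of 1 group alone. For Ano4 and Ano5, with 2 probes each, no array gave a signal well above background. Of the remaining anoctamins on the array, Ano7 and Ano9 were measured, and Ano2 and Ano3 were not.

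Ano1 was the measured anoctamin with the widest difference between the groups. Its only probe (A_55_P2038747, for transcript NM_178642) read 3.13, 2.78, 3.80 and 2.70 in Mutant 1 to 4, against 4.92, 4.45, 3.97 and 4.61 in Control 1 to 4. Every Mutant tumour lay below every Control tumour, but the gap was narrow: Mutant 3, the highest Mutant tumour, lay 0.18 below Control 3, the lowest Control tumour. On the linear scale Ano1 signal was 6.50 to 13.9 times the array's 75th percentile in Mutant tumours and 15.7 to 30.2 times in Control tumours. From low to high the order was Mutant 4, Mutant 2, Mutant 1, Mutant 3, Control 3, Control 2, Control 4 and Control 1. The spread within a group was wide beside that gap, with a range of 1.09 over Mutant tumours and of 0.94 over Control tumours.

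**Figure D1:**
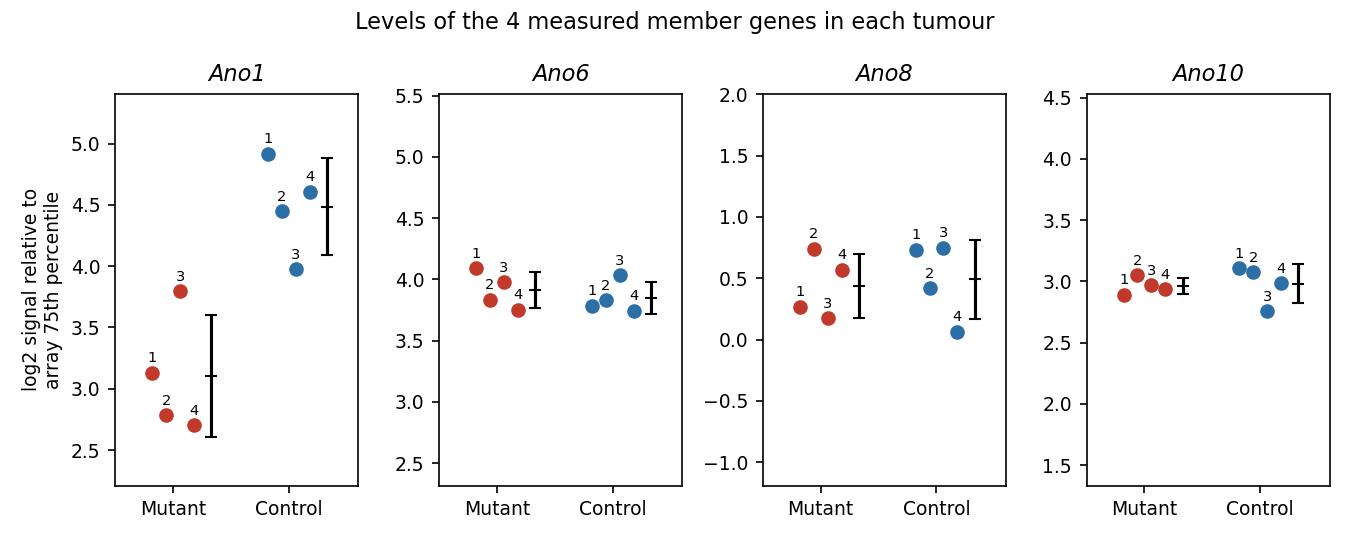
Level (log2 signal relative to the array's 75th percentile, vertical axis, 3.2 log2 units in every panel) of each measured member gene in 4 Mutant (red) and 4 Control (blue) tumours, numbered by replicate, with bars for the group mean ± SD. Ano1 averaged 3.10 in Mutant and 4.49 in Control tumours without overlap, while Ano6, Ano8 and Ano10 overlapped.

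Ano1 averaged 3.10 ± 0.50 in Mutant tumours and 4.49 ± 0.39 in Control tumours (SD, n = 4 each). The difference was -1.38 with a standard error of 0.29, or 0.383-fold. Groups without overlap and lower in Mutant tumours were found for 113 of 16068 genes (0.703%), without overlap in either direction for 1.42%, and both without overlap and at least 2-fold lower for 5 genes (0.0311%), of which Ano1 is 1; nothing is read from these shares, since Ano1 was chosen on this contrast. The arrays lay in 2 rows of 1 slide, each with 2 tumours of either group. In row 1 Ano1 averaged 2.96 in Mutant and 4.68 in Control tumours (difference -1.73), and in row 2 it averaged 3.25 in Mutant and 4.29 in Control tumours (difference -1.04). Row 2 held both tumours at the narrow gap, Mutant 3 and Control 3.

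Ano6, the scramblase that exposes phosphatidylserine on activated platelets and other cells, was close to level between the groups. Its brighter probe (A_52_P660158) read 4.09, 3.83, 3.98 and 3.75 in Mutant 1 to 4, against 3.78, 3.83, 4.03 and 3.74 in Control 1 to 4. The groups covered nearly the same range. The difference was 0.07 ± 0.12 (SE; two-sided exact permutation p = 0.514; limma adjusted p = 1.00), and its 95% interval ran from 0.866-fold to 1.27-fold. A dimmer probe for another Ano6 transcript (A_55_P2327027) averaged -0.73 in Mutant and -0.59 in Control tumours, that is, -0.14 ± 0.17 (SE; two-sided exact permutation p = 0.514), so the probes differed in sign and neither difference exceeded its error.

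Ano10, an intracellular anoctamin whose loss causes an ataxia in humans, gave 3 measured probes, all with differences near 0. It read 2.89, 3.05, 2.97 and 2.93 in Mutant 1 to 4, against 3.11, 3.07, 2.76 and 2.98 in Control 1 to 4. All Mutant tumours lay inside the Control range. The difference was -0.02 ± 0.11 (SE; two-sided exact permutation p = 0.800; limma adjusted p = 1.00), with a 95% interval from 0.827-fold to 1.18-fold. The other Ano10 probes differed by -0.01 and 0.03, with standard errors of 0.14 and 0.15.

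Ano8, known as a tether between the endoplasmic reticulum and the plasma membrane, varied more from tumour to tumour. It read 0.27, 0.74, 0.17 and 0.57 in Mutant 1 to 4, against 0.73, 0.42, 0.75 and 0.06 in Control 1 to 4. Both groups held high and low tumours, and Control 4 was lowest of the 8. The difference was -0.06 ± 0.20 (SE; two-sided exact permutation p = 0.800; limma adjusted p = 1.00). Its 95% interval, 0.698-fold to 1.33-fold, is wider than those of Ano6 and Ano10.

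**Figure D2:**
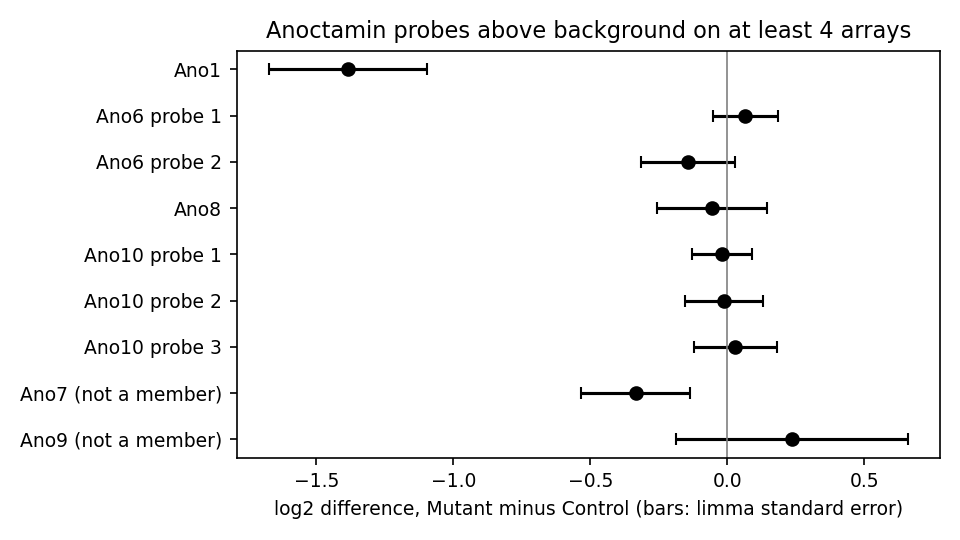
Log2 difference, Mutant minus Control (horizontal axis), for each anoctamin probe that passed the filter on background, with bars for the limma standard error; probes of a gene are numbered from brightest to dimmest. Ano1 lies at -1.38, and the 6 other member probes lie between -0.14 and 0.07.

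Ano4, best known from nervous tissue, and Ano5, a muscle and bone anoctamin whose loss causes a limb-girdle dystrophy in humans, gave no usable level. Ano4 probes read from -8.29 to -7.59 in Mutant tumours and from -8.29 to -7.56 in Control tumours. Ano5 probes read from -7.94 to -7.15 in Mutant tumours and from -7.96 to -7.42 in Control tumours. The dimmest probes that counted as well above background lay between -6.05 and -5.76 on Mutant arrays and between -5.97 and -5.45 on Control arrays, so both genes sat below that limit in every tumour. No fold is given for them.

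Skeletal muscle transcript differed widely between these tumours, and Ano5 stayed below the limit in those with most of it. All 16 skeletal muscle markers were measured, and 15 had a difference above 0, against 52.4% of all genes. Of these markers 11 were higher with an unadjusted p under 0.05 (1.87% of all genes), and 0 passed the adjusted test. Their list level, the mean of centred log2 signals, was 1.93, 2.65, -0.79 and 1.45 in Mutant 1 to 4, against -0.49, 0.32, -1.73 and -3.34 in Control 1 to 4. Of 17 measured genes of limb-girdle dystrophy and membrane repair, the setting in which Ano5 is known in muscle, 13 were above 0 and 0 passed the adjusted test. An unadjusted p under 0.05 was found for 6 of the 17, all higher in Mutant tumours. Tcap, a sarcomere protein, differed by 2.86 ± 1.01 (SE) and the caveolin of muscle Cav3 by 2.64, both above background on all 8 arrays. Other genes of the list passed the filter mainly through Mutant tumours, such as the sarcomere gene Myot, above background on 4 Mutant and 2 Control arrays. The 17 genes had a median difference of 0.27, against 0.01 over all genes, and that median was 0.86 without Control 4, 0.12 without Control 1, 0.16 without Control 3 and 0.09 over the 13 genes above background on all 8 arrays.

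Ano7 and Ano9, the measured anoctamins beyond the 6 chosen genes, were dim. Ano7, an anoctamin known from prostate, read -4.32, -4.16, -3.65 and -4.31 in Mutant 1 to 4, against -3.41, -3.93, -4.02 and -3.75 in Control 1 to 4. Mutant 3 lay inside the Control range and the other Mutant tumours below it. A second Ano7 probe was well above background on no array, so every Ano7 value given rests on 1 dim probe. The Ano7 difference was -0.33 ± 0.20 (SE; two-sided exact permutation p = 0.143; limma adjusted p = 1.00). Ano9 averaged -3.90 ± 0.20 in Mutant tumours and -4.13 ± 0.93 in Control tumours (SD, n = 4 each; two-sided exact permutation p = 0.800), with Control 3 at -5.46 not well above background. Without Control 3 the Ano9 difference was -0.21 in place of 0.24.

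The pattern of Ano1 over the tumours was set beside that of all other named genes by Pearson correlation over the 8 tumours, as a description. Among 14705 genes with names other than predicted models, the highest values were those of Btg1, an antiproliferative gene (r = 0.97), Tbc1d15, a Rab GTPase-activating protein (0.95), Yeats4, a chromatin reader (0.94), Dag1, the matrix receptor dystroglycan (0.94), and Rtbdn (0.93). Their differences were small beside that of Ano1: -0.18 for Btg1, -0.17 for Tbc1d15, -0.16 for Yeats4, -0.37 for Dag1 and -0.55 for Rtbdn. The lowest values were those of Art4 (-0.95), the selenoprotein Selenon (-0.94), Dock5 (-0.94), Amer1 (-0.94) and the heparin-binding factor Ptn (-0.94). These correlations share the group difference, since the genes were sought for a profile that separates the groups. Of the anoctamins, Ano7 came nearest to Ano1 (r = 0.84, 70th of 16049 genes), followed by Ano10 (0.31), Ano9 (0.03), Ano8 (-0.16) and Ano6 (-0.23).

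**Figure D3:**
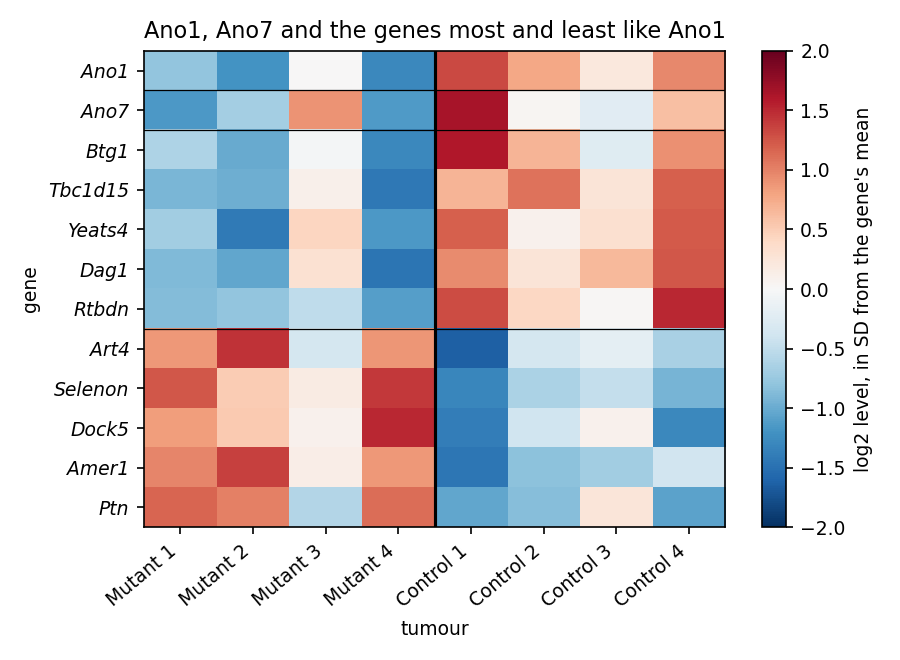
Levels of Ano1, Ano7 and the genes with the highest (Btg1 to Rtbdn) and lowest (Art4 to Ptn) Pearson r to Ano1, by tumour (columns; 4 Mutant left of 4 Control); colour gives log2 level in SD from the gene's own mean. Mutant 3 is the Mutant tumour nearest to the Control pattern in most rows. It is also the Mutant tumour with the highest Ano1 level, so this follows from choosing genes by r to Ano1.

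Genes next to Ano1 on chromosome 7, which in human carcinomas are often amplified along with it, were mostly a little below 0. Of 7 measured neighbours 6 were below 0 and 1 above, with a median of -0.12, and 0 passed the adjusted test or had an unadjusted p under 0.05. Over all genes 52.4% had a difference above 0. The growth factor Fgf15 differed by -1.16 ± 0.63 (SE; -0.78 without Control 4), the scaffold Shank2 by -0.28, the cyclin Ccnd1 by -0.21 and the cortical actin protein Cttn by 0.13. Fadd and Fgf3, the coding genes on either side of Ano1, differed by -0.06 and -0.12, with standard errors of 0.15 and 0.29. Fgf4 gave no signal well above background, and Lto1 was not matched to a probe.

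Chloride channels of other families had differences in both directions. Of 8 measured candidates for calcium-activated chloride currents (Clca, bestrophin and tweety genes) 5 were above 0, with a median of 0.10 (-0.06 without Control 3, 0.24 without Control 2), and 0 passed. In this list the tweety gene Ttyh3 differed by 0.44 ± 0.21 (SE), Best2 by -0.27, Clca4a by -0.21 and Clca3a2 by 0.85, which ran from 0.34 without Control 1 to 1.42 without Control 2. Of 14 genes for ClC, volume-regulated, CFTR and proton-activated channels 10 were below 0, with a median of -0.07, and 0 passed. Here the endosomal exchanger Clcn5 differed by -0.44 ± 0.20 (SE), and Lrrc8a, the obligatory subunit of volume-regulated channels, by 0.14. The TMC and TMEM63 proteins, distant relatives of anoctamins in structure, had a median of 0.08 over 7 measured genes (-0.03 to 0.16 with a tumour left out). Of these Tmc6 did not overlap between the groups (difference 0.20, standard error 0.10; higher without overlap in 0.716% of all genes), but the mean of its probes differed by 0.05.

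Genes that act with ANO1 and genes that share the work of ANO6 were counted next. Among 20 measured genes of calcium release, calcium entry and ANO1 binding 11 were above 0 and 9 below, with a median of 0.03, and none had an unadjusted p under 0.05. The linkers of membrane and actin Ezr, Msn and Rdx differed by -0.34, 0.21 and -0.18, and the calcium release channel Itpr2 by -0.26. Among 17 scramblases and flippases 12 were above 0, with a median of 0.12 (0.08 to 0.17 over 20 settings), against 0.01 over all genes. The scramblase-like gene Plscr4 read 1.08, 0.68, 0.42 and 0.62 in Mutant 1 to 4, against -0.32, -0.18, 0.35 and 0.39 in Control 1 to 4. Its groups did not overlap, by a margin smaller than the spread of either, and the difference was 0.64 with a standard error of 0.22 (limma adjusted p = 1.00). It was the 1 gene of the 17 without overlap and the 1 with an unadjusted p under 0.05, against 0.716% of all genes higher without overlap and 1.87% higher with such a p. Xkr8, the scramblase of dying cells, differed by 0.14. Of the 5 genes below 0, Xkr4 was lowest, at -0.57 with a standard error of 0.31, and was above background on 3 Mutant and 3 Control arrays.

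At contacts between the endoplasmic reticulum and the plasma membrane, where ANO8 is placed, 8 of 13 measured genes were below 0, with a median of -0.06. Esyt2, an extended synaptotagmin that bridges these membranes, read 2.44, 2.58, 2.56 and 2.34 in Mutant 1 to 4, against 2.84, 2.71, 2.93 and 2.69 in Control 1 to 4. The Esyt2 groups did not overlap, the 1 case among the 13 genes, against 0.703% of all genes lower without overlap. The difference was -0.32 with a standard error of 0.11 (limma adjusted p = 1.00). Its relative Esyt1 differed by -0.25 with a standard error of 0.19, with overlap, and Esyt3 by 0.22 with a standard error of 0.47. Jph2 had the highest difference of the list, 1.24 with a standard error of 1.06, and was above background on 4 Mutant and 2 Control arrays.

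Levels of hypoxia response genes and of skeletal muscle markers were set beside Ano1 over the tumours. The level of 15 hypoxia response genes was -0.55, -0.52, 0.42 and -0.61 in Mutant 1 to 4, against 0.16, 0.40, 0.76 and -0.07 in Control 1 to 4, and all 15 genes had a difference below 0, 6 of them with an unadjusted p under 0.05 (lower in 1.03% of all genes). Mutant 3, which had the highest Ano1 level of the Mutant tumours, stood apart from them in both lists, with a hypoxia level among those of Control tumours and a skeletal muscle level of -0.79. Among Control tumours the order was another: Control 3 had the highest hypoxia level and the lowest Ano1 level. With the skeletal muscle level as a term in the fit, an alternative added after the data were seen, the Ano1 difference was -1.08 with a standard error of 0.40, and with the hypoxia level as a term it was -1.19 with a standard error of 0.39. Both list levels differed between the groups, by 2.62 for skeletal muscle and -0.63 for hypoxia, so these fits cannot tell them apart from genotype. The part of muscle and hypoxia in the Ano1 difference was not tested.

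**Figure D4:**
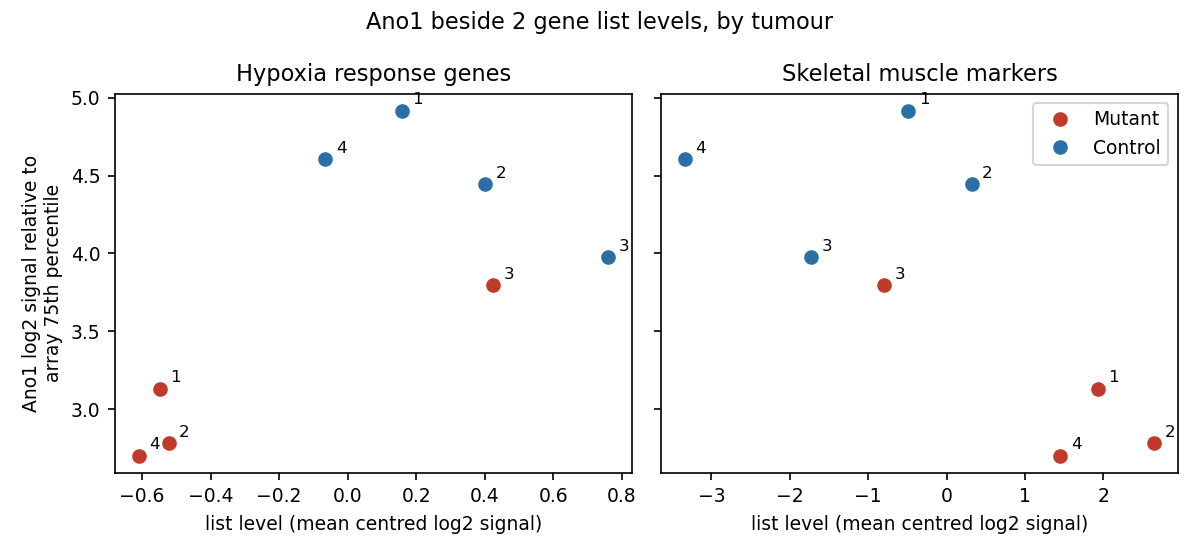
Ano1 level (vertical axis, log2 signal relative to the array's 75th percentile) against the level of 15 hypoxia response genes (left) and 16 skeletal muscle markers (right), in mean centred log2 signal, for 4 Mutant (red) and 4 Control (blue) tumours numbered by replicate. Mutant 3 lies near the Control tumours in both panels, and Mutant 1, 2 and 4 lie together.

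Marker lists of the cell types known for Ano1 gave medians that moved widely with single tumours. Of 9 measured carcinoma and epithelium markers 6 were below 0, with a median of -0.26 that ran from -0.41 without Mutant 2 to -0.03 without Control 4. Their level ran from -0.49 to -0.00 in Mutant tumours and from -0.38 to 0.86 in Control tumours. Krt8 and Krt18, the keratin pair of simple epithelia, differed by -0.53 and -0.47, with standard errors of 0.22 and 0.20 (limma adjusted p = 1.00 for each). Krt8 read 6.10, 5.93, 6.43 and 5.77 in Mutant 1 to 4, against 6.74, 6.06, 6.60 and 6.94 in Control 1 to 4. Of 10 measured smooth muscle and pericyte markers 8 were above 0, with a median of 0.26 that ran from -0.01 without Control 1 to 0.48 without Control 4, and Lmod1 gave no signal well above background. All 3 markers used for interstitial cells of Cajal, the gut pacemaker cells, were above 0, by 0.21 for Kit, 0.28 for Etv1 and 0.52 for Prkcq, each within its standard error, and their median of 0.28 ran from -0.01 without Control 3 to 0.59 without Control 4. Their level ran from -0.24 to 0.53 in Mutant tumours and from -0.78 to 0.81 in Control tumours. Of 10 secretory gland markers 5 were measured, with a median of -0.05 (-0.12 to 0.16 with a tumour left out), and the milk protein genes Csn2 and Csn3 and the gland gene Pip gave no signal well above background. In fibroblast markers, 12 of 12 measured, the median was -0.01, from -0.43 without Mutant 2 to 0.95 without Control 4, and the level ran from -1.07 to 0.96 in Mutant tumours and from -1.38 to 2.25 in Control tumours. The part of any of these cell types in the Ano1 difference was not tested.

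The Ano1 difference lay between -1.64, with arrays weighted by their scatter, and -1.08, with the skeletal muscle level as a term, under 23 other settings. Many of these settings could not move it. Ano1 had 1 probe, above background on every array, so the filter and probe summary settings returned the same -1.38. The variance trend and both blocks also returned -1.38. Since the groups did not overlap, no fit with a tumour left out could change the sign. With a tumour left out it was -1.61 without Mutant 3 and -1.24 without Control 1, the extremes of 8 such fits. Background correction by normexp gave -1.39, quantile normalization -1.37 and median centring -1.41. No gene passed an adjusted p under 0.05 under any of the 23 settings.

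**Figure D5:**
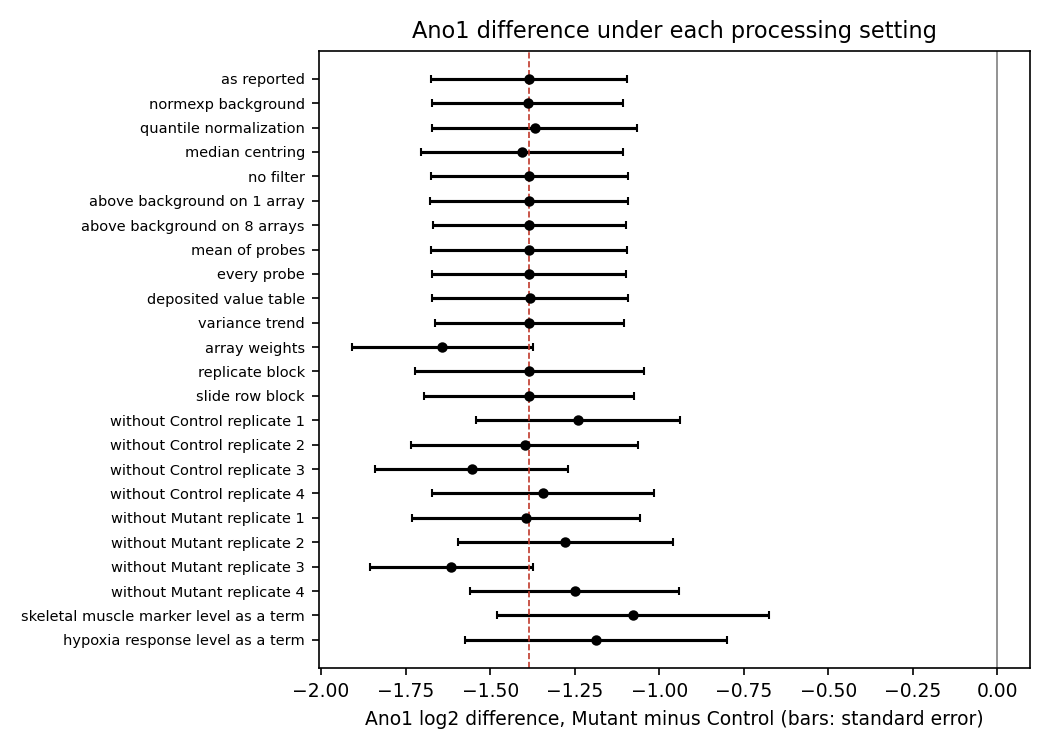
Ano1 log2 difference, Mutant minus Control (horizontal axis), as reported and under 23 other settings (rows), with bars for the standard error; the dashed line marks the reported value of -1.38 and the grey line 0. All values lie between -1.64 and -1.08.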

How the data were processed

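Cy3-labelled RNA of 8 tumours was read on 1-colour Agilent arrays. Per the file headers, the authors' Feature Extraction (10.7.3.1; the submitters' processing notes name 9.1) gave the deposited intensity, background-subtracted and detrended on a linear scale, with flags that carry no unit (other). The authors' deposited value table holds the same intensity for 99.5% of probes. Outlier spots were dropped, log2 signals centred on each array's 75th percentile, and probes well above background on at least 4 arrays kept. Genes came from RefSeq accessions (32994 of 56605 probes; GRCm38.p6; no coordinates, since the array design names another build) and took their brightest probe. The comparison used R 4.3.3 and limma 3.58.1 (group as the only term, Benjamini-Hochberg adjustment) and, for single values, two-sided exact permutation (70 arrangements, smallest p 0.0286). Nothing in the labels says that replicates shared a mouse, and 4 tumours per group limit the precision. On simulated data with 16068 genes, 49.3% of 2-fold, 79.6% of 4-fold and 87.1% of 8-fold changes were recovered, with 5.1% false calls. There each gene was drawn independently with its own scatter, and 200 genes were changed per draw. Each draw mixed 2-fold, 4-fold and 8-fold changes under 1 adjustment, so the share for each fold depends on that mix. In the tumours sets of genes, such as those of skeletal muscle, varied together, so these shares may not hold for them.

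The members, gene lists and named genes' rule were chosen with earlier results of these data known. The rule took all members and family genes, and up to 4 genes of smallest p per list, from which the text takes those it describes. It also took the 5 genes of highest and of lowest r to Ano1. Genes beyond the rule (Esyt3, Fadd, Fgf3, Xkr8) were named after their values were seen. A relation between Ano5 and muscle level was planned and not run, since Ano5 was below background throughout. Alternatives covered background correction, scaling, filter, probe summary, value table, variance trend, array weights, blocks and each tumour left out.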

Additional observations from a re-analysis of the deposited data

How the results depend on the processing

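Over 23 other settings the number of genes called stayed at 0, while 149 to 1387 genes had an unadjusted p under 0.05, against 467 in the fit reported. The small differences of Ano6, Ano8 and Ano10 changed sign in some settings, while that of Ano7 stayed below 0 in 21 settings (-0.54 to -0.17) and that of Ano9 ran from -0.21 to 0.51. Ano6 turned to -0.039 with the mean of its probes, and ranged from 0.01 to 0.13 with a tumour left out. Its highest value was 0.18, with the hypoxia level as a term (standard error 0.15). Ano8 ranged from -0.198 to 0.0328 with a tumour left out, and was above 0 without Control 1 (0.03), Control 3 (0.03), Mutant 1 (0.00165) or Mutant 3 (0.0328). Its lowest value was -0.37, with the skeletal muscle level as a term (standard error 0.25). Ano10 ranged from -0.0933 to 0.0232, and was above 0 without Control 1 (0.0232), Control 2 (0.01) or Mutant 1 (0.00425). The cause was not tested. Deviations from the group means correlated between same-numbered tumours at 0.08, -0.31, 0.05 and -0.31. These values were not set against those of differently numbered tumours, so they cannot settle whether replicate numbers pair the tumours. A replicate block could not change these differences, since each replicate number held a Mutant and a Control tumour. Those of Ano1, Ano6, Ano8 and Ano10 were thus again -1.38, 0.07, -0.06 and -0.02. With this block the standard error for Ano1 was 0.34, and 0 genes were called. Medians of the neighbours of Ano1 ranged from -0.25 to -0.04 over 20 settings, those of the hypoxia genes from -0.76 to -0.52 and those of skeletal muscle markers from 2.02 to 3.56. The level below which no probe was well above background lay between -6.05 (Mutant 1) and -5.45 (Control 3), depending on the array, which limits Ano4 and Ano5.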

Other observations

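With each group's mean removed, so that only the spread inside the groups counts, the genes most like Ano1 over the 8 tumours were Fam135b (r = 0.97), Krtap5-3 (0.96), the kinesin motor subunit Kif3b (0.96), the deubiquitinase Mindy2 (0.96) and Btg1 (0.95). The lowest were the chromatin factor Atf7ip (-0.98), the protease Prss22 (-0.95), the G protein subunit Gna13 (-0.95), the chemokine Ccl4 (-0.94) and Ccdc88a (-0.94). Of these 10 genes Btg1 alone was also among the 5 highest when the group means were kept. Ano7 stood at 0.89, 51st of 16049 genes, Ano10 at 0.46, Ano9 at 0.42, Ano6 at 0.01 and Ano8 at -0.52. These values describe 8 tumours, with 14705 genes searched for the highest and lowest.

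Platelets are a cell in which ANO6 is known to work. Of their markers, 7 were measured, and 2 were above 0 and 5 below, with a median of -0.10. Gp9, a subunit of the von Willebrand factor receptor, was above background on 4 Mutant arrays and on 2 Control arrays, so it passed the filter through the Mutant tumours; its difference of 1.33, without overlap, was 0.28 with normexp background correction and is not read as a fold. The others named were measured on all 8 arrays: Gp1bb differed by -0.17, Ppbp by -0.26 and Itga2b by -0.17. Bone markers, relevant to Ano5, were measured in 3 of 7 cases. Alpl differed by 2.81 with a standard error of 1.59 (1.24 without Control 4), Phex by 1.12 (1.85 without Mutant 4) and Runx2 by 0.16 (-0.02 without Mutant 3), and Sp7, Bglap and Dmp1 gave no signal well above background. In none of 18 groups of measured anoctamin probes did the gap from the highest or lowest tumour to its neighbour pass, as a share of the group's range, Dixon's critical value for 4 samples. Control 3 was nonetheless low for Ano9, at -5.46, and the Ano9 difference depends on it.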
